A study of Bos taurus with 6 samples.

Results

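The miR-15 and miR-16 family was examined in cultured bovine granulosa cells, the somatic cells that line the ovarian follicle and feed the oocyte. Its 6 members are bta-miR-15a, bta-miR-15b, bta-miR-16a, bta-miR-16b, bta-miR-195 and bta-miR-497. They were chosen by name, as the seed family known for acting on the cell cycle and on BCL2, out of 1028 bovine miRNAs listed in each library. All 6 had enough reads to be among the 365 miRNAs tested.

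Granulosa cells came from slaughterhouse ovaries, from small antral follicles of 3 to 6 mm, and were grown for 24 h at 37 °C in medium with serum depleted of exosomes. The control group then stayed at 37 °C for another 24 h, while the heat-stressed (HS) group was moved to 42 °C for the same time. Each group had 3 small RNA libraries. The sources describe them as biological triplicates without saying which animals or pools they came from, so p-values measure the spread between these libraries. Levels are given as normalised CPM, the deposited reads scaled to a common library size after TMM scaling (trimmed mean of M-values, which assumes that most miRNAs do not change). One read stands for 1 whole molecule here, so no scaling by length is needed to compare miRNAs, although adapters are known to ligate to some miRNAs better than to others.

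A miRNA guides the Argonaute complex to messenger RNAs through its seed, the bases 2 to 8 at its 5′ end, and lowers the output of those messages. Members of this family share a seed and are known to repress cyclins D and E, the kinases CDK6, WEE1 and CHEK1 and the survival factor BCL2. They are therefore regarded as brakes on the step from G1 into S phase and as promoters of apoptosis. Granulosa cells of growing follicles divide rapidly, and their loss by apoptosis is the route of follicle atresia. The bovine genes lie as 3 neighbouring pairs in RefSeq (assembly ARS-UCD2.0). MIR15A and MIR16A lie side by side in the transcribed pseudogene LOC100847818, MIR15B and MIR16B in SMC4, which encodes a condensin subunit needed to compact chromosomes, and MIR195 and MIR497 in the long noncoding RNA gene LOC107131510. No other annotated gene lies wholly between the members of a pair.

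The libraries held 2076239 to 4590971 reads, and control replicate 1 was the smallest. No replicates of a group matched within sampling noise (chi-square of 84.3 to 431 per degree of freedom over 406 to 434 miRNAs). Lists of miRNA markers of other cells were measured beside the members. The summed level of 7 blood cell miRNAs was 730.2 to 895.4 normalised CPM in control and 676.6 to 799.8 in HS cells, and bta-miR-144 and bta-miR-451, which mark red cells, reached at most 2.65 normalised CPM in every library. The sums of 6 epithelial miRNAs were 62.0 to 96.9 in control and 51.9 to 88.9 in HS cells, and those of 6 muscle and stromal miRNAs 143.6 to 321.3 and 137.7 to 269.5. Among 6 miRNAs found in follicles, 5 reached 10 normalised CPM in 2 or more libraries, but none of them is restricted to granulosa cells. The lists are not complete: bta-miR-155, which is abundant in immune cells, had 101311 to 138129 and bta-miR-199a-3p, which is abundant in mesenchymal cells, 934.5 to 1680 normalised CPM, and neither is in a list. The part of other cells in the results was not tested. None of these 4 lists had a miRNA past an adjusted p of 0.05 in limma, which only 2.19% of all tested miRNAs met.

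The family was a sizeable part of the granulosa cell miRNA pool. It took 4.79%, 5.06% and 5.08% of all reads in libraries 1, 2 and 3 of the control, and 4.98%, 4.80% and 4.998% in those of the HS group. The 95% Clopper-Pearson interval of each share reached at most 0.0291 percentage points to either side, which covers counting error only. Control libraries averaged 4.98% ± 0.161 and HS libraries 4.93% ± 0.108 (SD, n = 3 each), and the groups overlapped. The difference of -0.054 percentage points was smaller than the spread between replicates. No test was made of this sum, because the members were picked together. On the log2 scale, the SD over the 6 libraries was 0.054 for bta-miR-16b, 0.089 for bta-miR-195 and 0.12 to 0.21 for the other members. For the 97 tested miRNAs with a mean of 500 or more normalised CPM, whose counting error is small like that of the members, the median SD was 0.194, and of the members bta-miR-15b alone lay above it.

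Members differed widely in level, and the order was the same in every library. bta-miR-16b was the highest, ranking 7 to 9 among all miRNAs, followed by bta-miR-16a (29 to 31), bta-miR-195 (33 to 35), bta-miR-15b (45 to 58), bta-miR-497 (59 to 67) and bta-miR-15a (76 to 81). Within the family, bta-miR-16b took 65.9% to 68.3% of the reads and bta-miR-15a 1.77% to 2.12%. The ranges of neighbours in this order did not overlap over the 6 libraries, but the gap between bta-miR-15b and bta-miR-497 was narrow in control replicate 2, where their ratio was 1.01 against up to 1.76 elsewhere.

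**Figure D1:**
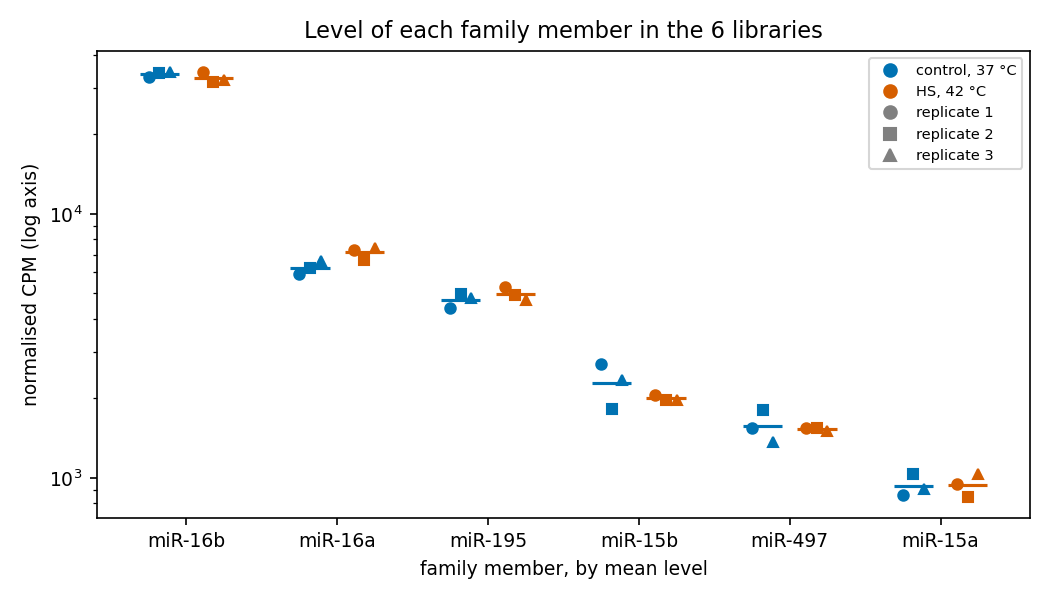
Normalised CPM of the 6 members on a log axis, with 1 point per library (control in blue, HS in orange, marker shape for the replicate number) and a bar at each group mean. The members keep their order in all 6 libraries, from bta-miR-16b at 31578 or more to bta-miR-15a at 1034 or less.

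To ask how HS affected these miRNAs, each member was compared between the groups in a limma fit across all 365 miRNAs. No member was past an adjusted p of 0.2 with a 2-fold or larger difference (1 on the log2 scale), a rule that 3.01% of the tested miRNAs met, nor past an adjusted p of 0.05, which 2.19% met. At an unadjusted p under 0.05 there were 0 members in limma and 0 by edgeR's quasi-likelihood test, where the shares of all tested miRNAs were 14.5% and 13.7%. Adjusted p-values of the members ran from 0.428 to 0.972 in limma. Of the 6, 3 had a positive log2 fold change and 3 a negative one, with a median of -0.0077 against -0.0015 over all tested miRNAs. The median size of the change was 0.065, against 0.2 over all tested. The 95% intervals were narrow, the farthest end from 0 being 0.56 on the log2 scale, so that each left out a change of 1 (2-fold) in either direction. In these bulk samples, fewer cells with a miRNA and less of it per cell cannot be told apart. The intervals also hold smaller changes in either direction.

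**Figure D2:**
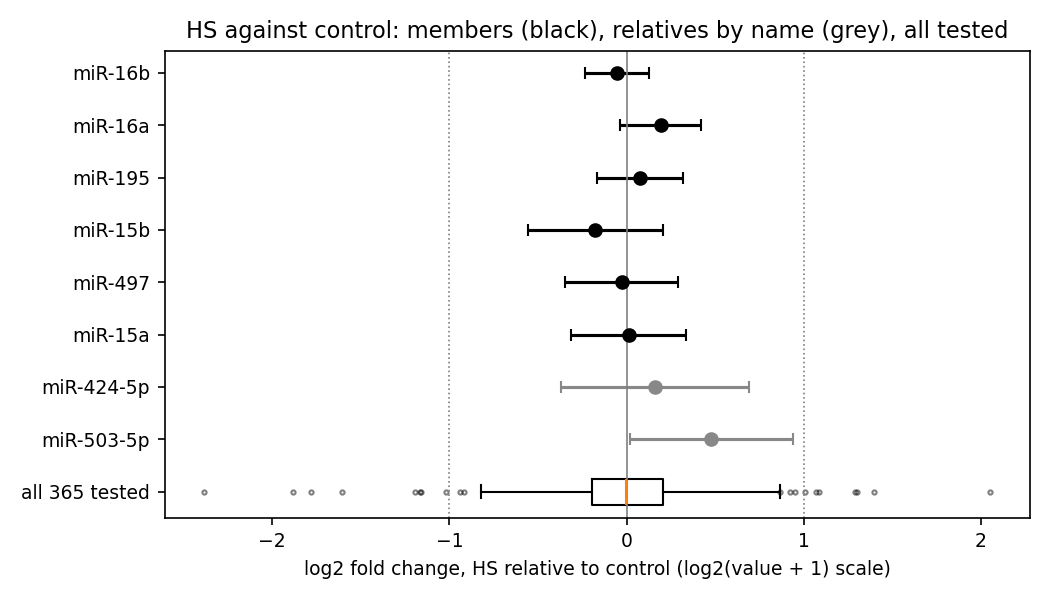
Log2 fold change of HS relative to control on the log2(value + 1) scale, as points with 95% limma intervals, for the 6 members (black) and 2 relatives by name (grey), beside a box plot of all 365 tested miRNAs (box: quartiles, whiskers: the central 95% of values). Every member lies between -0.18 and 0.19 with an interval that holds 0 and stays inside the dotted lines at 1 and -1.

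The pair encoded with SMC4 held the most abundant member. bta-miR-16b, the bovine form of the widely expressed miR-16 that is known to target cyclins and BCL2, had 33148, 34143 and 34512 normalised CPM in libraries 1, 2 and 3 of the control, and 34453, 31578 and 32169 in those of the HS group. HS replicates 2 and 3 lay below the 3 control libraries and HS replicate 1 within their range. The HS minus control difference was -0.053 ± 0.076 (log2, SE, adjusted p = 0.844 by limma), with a 95% interval from 14.9% lower to 9.16% higher in HS cells. Its neighbour bta-miR-15b, which shares the seed but differs from miR-16 towards its 3′ end, stood at 2711, 1816 and 2346 in the control libraries, against 2061, 1978 and 1964 after HS. The control libraries fell on both sides of the HS libraries, which were close together. The coefficient of variation was 19.6% in control and 2.61% in HS cells, while counting error was at most 1.34%. The difference for bta-miR-15b was -0.18 ± 0.162 (log2, SE, adjusted p = 0.744 by limma). It rested on single control libraries: it was -0.045 without control replicate 1 and -0.33 without control replicate 2 (limma adjusted p = 0.933 and 0.253, the latter with an unadjusted p of 0.0281).

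In the pair within LOC100847818, bta-miR-16a was the only member whose groups did not overlap. It is a near-identical copy of bta-miR-16b from another locus. Its level was 5941, 6217 and 6611 normalised CPM in libraries 1, 2 and 3 of the control, and 7295, 6706 and 7439 in those of the HS group. Every HS library was above every control library, although HS replicate 2 was only slightly above control replicate 3. Group means were 6256 ± 337 and 7147 ± 388 (SD, n = 3 each), which differ by 0.19 ± 0.097 on the log2 scale (SE, adjusted p = 0.428 by limma), or 14.2% higher with an interval from -2.62% to 34.0%. Among all tested miRNAs, 20% had groups that did not overlap and 9.59% had HS above control in this way (10.4% below), so 1 of 6 members is near the background. With upper quartile scaling, which moved the median of all tested miRNAs to -0.18, the difference for bta-miR-16a was 0.0060. bta-miR-15a, whose loss together with its neighbour is known from human chronic lymphocytic leukaemia, stood at 861.7, 1033 and 908.0 in the control libraries, against 946.0, 848.5 and 1034 after HS. Highest and lowest values of bta-miR-15a came close in both groups, and the difference was 0.013 ± 0.137 (log2, SE, adjusted p = 0.972 by limma).

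bta-miR-195 and bta-miR-497, members known for restraining proliferation and for targeting cyclins and CHEK1, overlapped between the groups. bta-miR-195 had 4392, 4981 and 4811 normalised CPM in libraries 1, 2 and 3 of the control, and 5281, 4946 and 4729 in those of the HS group. Only HS replicate 1 exceeded the control range. The HS minus control difference was 0.077 ± 0.103 (log2, SE, adjusted p = 0.839 by limma). bta-miR-497 stood at 1540, 1806 and 1363 in the control libraries, against 1538, 1545 and 1505 after HS, so that all HS libraries fell inside the control range. The difference was -0.028 ± 0.135 (log2, SE, adjusted p = 0.959 by limma). As with bta-miR-15b, its coefficient of variation was larger in control (14.2%) than in HS cells (1.42%), the latter below the largest counting error of 1.78%. This difference in spread was not tested.

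Whether neighbouring genes gave their products in a fixed proportion was examined by the ratio of both members within a library, which does not depend on the scaling between libraries. The pairs were unequal and in the same direction in every library. bta-miR-16a exceeded bta-miR-15a by 6.02 to 7.90 times, bta-miR-16b exceeded bta-miR-15b by 12.2 to 18.8 times, and bta-miR-195 exceeded bta-miR-497 by 2.76 to 3.53 times. HS minus control differences of the log2 ratio were 0.18, 0.12 and 0.10 in this order, and the groups overlapped in all 3 pairs (exact two-sided permutation test, p = 0.2, 0.7 and 0.5, Benjamini-Hochberg adjusted over the 3 pairs 0.6, 0.7 and 0.7, smallest possible p 0.1). The ratio of bta-miR-16b to bta-miR-15b varied most in control cells, at 12.2, 18.8 and 14.7, against 16.7, 16.0 and 16.4 in HS cells.

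The ratios of neighbours were not the steadiest in the family. Over the 15 possible pairs, the SD of the log2 ratio over 6 libraries was lowest for bta-miR-16b with bta-miR-195, at 0.089, and these come from different loci. The neighbouring pairs ranked 6 (bta-miR-15a with bta-miR-16a, 0.14), 8 (bta-miR-195 with bta-miR-497, 0.142) and 11 (bta-miR-15b with bta-miR-16b, 0.209). All 5 pairs that hold bta-miR-15b were the least steady, from 0.209 to 0.305. Pairs share members and libraries, so these values are a description.

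**Figure D3:**
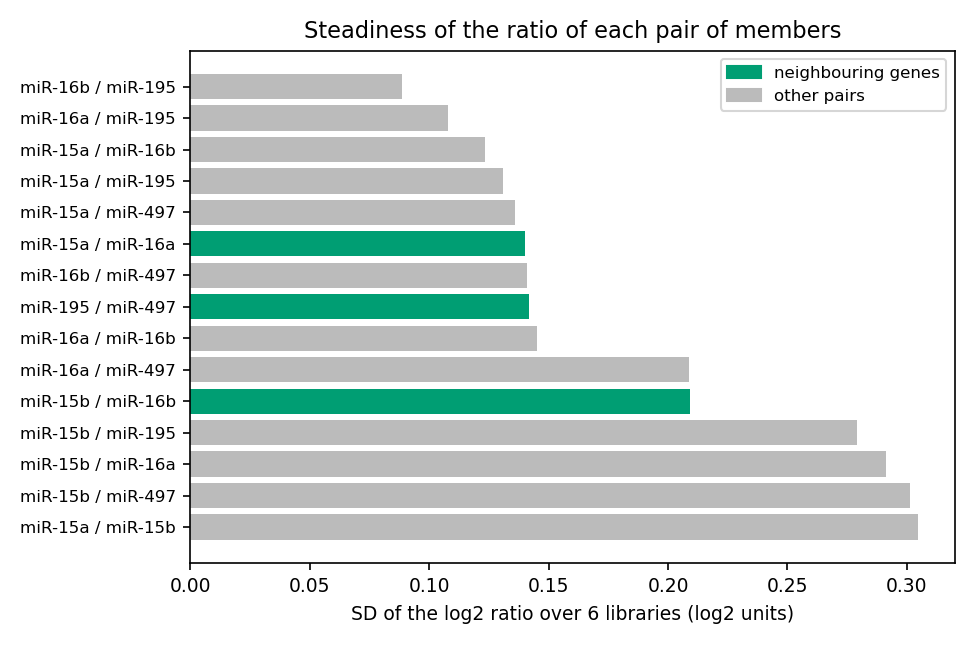
SD of the log2 ratio of normalised CPM over the 6 libraries for each of the 15 pairs of members, with neighbouring genes in green and other pairs in grey. The green bars lie at ranks 6, 8 and 11, and the 5 longest bars all include bta-miR-15b.

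The ratio of both forms of miR-16 was examined after its values were seen. bta-miR-16a was 0.179, 0.182 and 0.192 times bta-miR-16b in the 3 control libraries and 0.212, 0.212 and 0.231 times in HS cells. Every HS library was above every control library, and the log2 ratio was higher by 0.24 in HS cells. The values chose this ratio, so no test of it is given. As shares of the family, bta-miR-16a took 12.6% ± 0.444 without and 14.5% ± 0.645 with HS, while bta-miR-16b took 68.3% ± 0.039 and 66.3% ± 0.468 (SD, n = 3 each). Their sum was 80.8% ± 0.465 and 80.8% ± 0.353 of the family, and summed into a single feature they differed by -0.012 on the log2 scale (adjusted p = 0.969 by limma). How the authors' counting divided reads that fit both forms is not given in the sources used here, so the split between them is uncertain. Whether that counting also affects their sum was not tested.

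**Figure D4:**
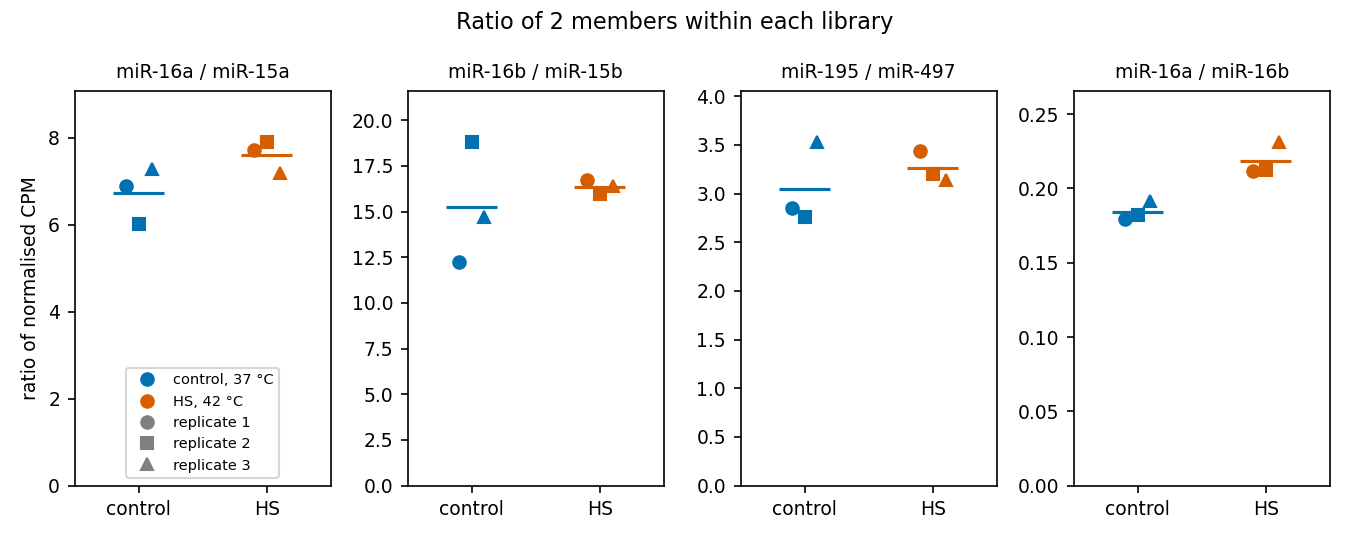
Ratio of normalised CPM of 2 members within each library, for the 3 neighbouring pairs and for bta-miR-16a to bta-miR-16b, with bars at the group means and axes that start at 0. The groups overlap in the first 3 panels, while in the last the control libraries lie at 0.179 to 0.192 and the HS libraries at 0.212 to 0.231.

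miRNAs counted as relatives of the family by name were far less abundant. Their seeds were not compared here. bta-miR-424-5p, which is known to target cell-cycle kinases and cyclins, had 79.6, 127.1 and 103.1 normalised CPM in libraries 1, 2 and 3 of the control, and 120.8, 94.6 and 127.3 in those of the HS group (0.16 ± 0.224 on the log2 scale, SE, adjusted p = 0.844 by limma). bta-miR-503-5p, from the same X-linked cluster, stood at 110.8, 91.9 and 100.6 in the control libraries, against 176.9, 121.0 and 130.3 after HS. Its HS libraries all lay above the control libraries, as for 9.59% of all tested miRNAs, with HS replicate 1 the highest. The difference for bta-miR-503-5p was 0.48 ± 0.194 (log2, SE, adjusted p = 0.311 by limma). Together both had at most 297.6 normalised CPM in a library, where the 6 members had at least 47603.

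The family was finally set beside other miRNAs known to act on cell division. Of 18 miRNAs listed as brakes (let-7, miR-34 and miR-449, miR-26 and both relatives above), 17 were tested. The log2 fold change was positive for 11 and negative for 6, with a median of 0.13. In limma, 0 had an adjusted p under 0.05, which 2.19% of all tested miRNAs had. An unadjusted p under 0.05 was found for 5 of the 17, and for 14.5% of all tested miRNAs. bta-miR-503-5p, described above, is among the 5. Of the others, bta-miR-449a, which is known to repress CDK6 and E2F signalling, averaged 404.4 normalised CPM without and 699.2 with HS (0.83 on the log2 scale, adjusted p = 0.22 by limma), and the p53-induced bta-miR-34a averaged 1325 and 1847 (0.48 on the log2 scale, adjusted p = 0.306). The 2 let-7 forms among them, from a family known to repress RAS, MYC and HMGA2, lay in opposite directions. bta-let-7d averaged 7898 without and 9488 with HS (0.26 on the log2 scale, adjusted p = 0.255 by limma), while bta-let-7c averaged 10087 and 8537 (-0.24, adjusted p = 0.311). Of 11 miRNAs listed as accelerators (from the miR-17-92 and miR-106b-25 clusters, with miR-221 and miR-222), all 11 were tested. The log2 fold change was positive for 7 and negative for 4, with a median of 0.034. Here too, 0 had an adjusted p under 0.05 in limma, against 2.19% of all tested. An unadjusted p under 0.05 was found for 1 of the 11, against 14.5% of all tested. That one was bta-miR-93, with averages of 14715 without and 12225 with HS (-0.27 on the log2 scale, adjusted p = 0.203 by limma). All listed miRNAs with an unadjusted p under 0.05 are named here, chosen after their values were seen.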

How the data were processed

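Each small RNA library started from 100 ng of RNA, and its adapters carried unique molecular identifiers (16 PCR cycles). Per the submitters' processing notes and the study's methods, the authors trimmed reads with Cutadapt 1.11, collapsed identical identifiers, mapped with Bowtie2 2.2.2 to assembly UMD3.1, assigned reads to miRBase miRNAs and normalised by TMM in edgeR. The deposited signal is normalised CPM, 1 value per miRNA and library. All values (100%) were whole multiples of 1 step per library (tolerance 0.01 of a read), which gave the reads used for depth, filter and count tests. A floor of 3 reads stands for 0.639 to 1.46 normalised CPM.

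limma 3.58.1 (R 4.3.3, mean-variance trend, group as the only term) was run on log2(value + 1) after filterByExpr of edgeR 4.0.16, with Benjamini-Hochberg adjustment over 365 miRNAs. Fold changes are on that scale. Ratios were compared by exact permutation tests (scipy 1.17.1, Python 3.11.15). Fits were tested on simulated reads with known changes. Alternatives were pseudocounts of 0.5 and 5, no filter, other scalings, edgeR, DESeq2 1.42.0, limma without the trend, the replicate block, each library left out, and bta-miR-16a and bta-miR-16b summed. The omission of both libraries numbered 1 and the ratio of bta-miR-16a to bta-miR-16b were added after the data had been seen.

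The members and lists were chosen with earlier results of these data known. Named miRNAs are the members, relatives by family name, the 3 miRNAs closest in pattern to the family sum and to each of the 3 most abundant members, and listed cell-cycle miRNAs. The red cell markers, bta-miR-486, bta-miR-155 and bta-miR-199a-3p were named after their values had been seen. All 6 members matched a RefSeq gene of ARS-UCD2.0. Reads were mapped to another assembly, so no positions are given. Mature sequences were not used here.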

Additional observations from a re-analysis of the deposited data

How the results depend on the processing

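No member was past either threshold under any of 13 alternatives that kept all libraries, in any of 6 fits that left out 1 library, or without both libraries numbered 1. Of 203 recomputed values, 192 kept their call and either their sign or, for the share of reads, a shift below 1 SD of the replicates. The other 11 changed sign, all of them in values that were not past a threshold before. With upper quartile factors the median of all tested miRNAs lay at -0.18 (log2), and under them bta-miR-15a was at -0.17 and bta-miR-195 at -0.11, both above that median, as was bta-miR-16a at 0.0060, while bta-miR-497 was at -0.21, bta-miR-16b at -0.24 and bta-miR-15b at -0.36. Summing both forms of miR-16 put the feature at -0.012, against 0.19 for bta-miR-16a, and its log2 ratio to bta-miR-15a at -0.024, since the sum is mostly bta-miR-16b. Without both libraries numbered 1, bta-miR-15a was at -0.048 and bta-miR-195 at -0.017. When single libraries were left out, the log2 fold change ran from -0.056 to 0.087 for bta-miR-15a, from -0.33 to -0.045 for bta-miR-15b, from 0.16 to 0.24 for bta-miR-16a, from -0.090 to -0.027 for bta-miR-16b, from 0.025 to 0.12 for bta-miR-195, from -0.12 to 0.078 for bta-miR-497 and from -0.025 to 0.29 for the ratio of bta-miR-16b to bta-miR-15b, which was negative without control replicate 1. The cause of these shifts was not tested. The difference in the family's share of reads ran from -0.15 to 0.0079 percentage points in this way, and was 0.063 with the 10 most abundant other miRNAs left out of the total. The HS minus control log2 ratio ran from 0.20 to 0.27 for bta-miR-16a to bta-miR-16b, from 0.10 to 0.24 for bta-miR-16a to bta-miR-15a and from 0.038 to 0.22 for bta-miR-195 to bta-miR-497.

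With the replicate block in limma, the members' adjusted p-values ran from 0.386 to 0.966 and no call was gained or lost. Deviations from the group means correlated at 0.421, -0.117 and 0.616 between libraries numbered 1, 2 and 3. Of the 6 libraries, 4 correlated best with the library of their own number in the other group. The sources do not say whether the numbers pair the samples, so the main fit holds the group only. Whether libraries of the same number share a source or a batch was not tested. bta-miR-16a had at least 12168 reads and bta-miR-15a at least 1765, and the coefficient of variation between replicates exceeded the largest counting error in both groups for every member except bta-miR-497 in HS cells (1.42% against 1.78%).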

Other observations

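Over the 6 libraries, the miRNAs whose log2 levels followed the family sum most closely were bta-miR-12015, bta-miR-2285ad and bta-miR-199c (Pearson r = 0.913, 0.91 and 0.907, the highest of 359 candidates). Their mean levels were 3.47, 3.07 and 7.21 normalised CPM, so their values rest on few reads. The closest to bta-miR-16b were bta-miR-12015, bta-miR-505 and bta-miR-450a (r = 0.928, 0.884 and 0.869). The closest to bta-miR-16a were bta-miR-2448-5p, bta-miR-2419-5p and bta-miR-11986b (r = 0.99, 0.959 and 0.934), which had log2 fold changes of 1.07, 0.87 and 0.63 in HS cells (limma adjusted p = 0.199, 0.14 and 0.388), against 0.19 for bta-miR-16a. The first and last of these averaged 3.45 and 3.17 normalised CPM, and bta-miR-2448-5p was at 0.976 in control replicate 1, under the floor of 3 reads there. The closest to bta-miR-195 were bta-miR-34c, bta-miR-10161-5p and bta-miR-2411-5p (r = 0.932, 0.904 and 0.901), at 7.97, 4.17 and 3.95 normalised CPM. These are the best of many candidates over 6 points that fall into 2 groups, and are given as a description with no test.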
